A study of Arabidopsis thaliana with 12 samples.

Results

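Among the array spots annotated to several genes, 70 spots read higher in the tpt1 mutant of Arabidopsis thaliana than in wild type (WT) and are described here. They were drawn from 870 spots annotated to 2 or more genes, out of 3439 spots in all. A spot was taken when it had a value above 0 in all 12 samples, when tpt1 lay above WT in all 6 pairs of samples with the same number, and when the mean difference was at least 0.5 on the log2 scale after quantile normalization. Of the 870 spots, 597 had all 12 values and 77 met these criteria. The 60 spots of several genes that were brightest in WT were left out, which removed 7 of the 77, as were 7 listed spots, 0 of which met the criteria. The values that chose the spots are the tpt1 and WT readings themselves, so their differences are given as a description, with no test.

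The mutant was tpt1, which the labels describe as having strongly reduced triose phosphate transport in the chloroplast, with 6 samples numbered 1 to 6. It was set against WT, with 6 samples of the same numbers, and both genotypes were of ecotype Wassilevskija. The labels give no tissue, age or growth condition and leave unsaid whether a genotype's samples were separate plants, so the spread may be technical. The array carried 692 spots of 1 gene and 1877 with no gene besides those of several genes. Median log2 intensities lay between -1.42 and -0.883 in tpt1 samples and between -2.38 and -1.72 in WT samples, and 385 to 476 spots were at 0 in a tpt1 sample against 490 to 603 in a WT sample. Changes are therefore quantile-normalized values and stand relative to the other spots.

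The triose phosphate/phosphate translocator, which is impaired in tpt1, exports the carbon fixed in the chloroplast to the cytosol in exchange for phosphate. Plant genomes hold many families of related genes that arose by duplication, and related transcripts share stretches of sequence. A spot annotated to several genes gives 1 reading for the set, and the annotation does not say which gene of the set gave the signal. How similar the genes of a spot are in sequence was not measured. Every spot is therefore named here by all of its genes, joined by a slash, and no reading is assigned to one of them.

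The 70 spots carried 157 distinct genes, all 157 of which were found in the gene table. Of the spots, 57 had 2 genes, 10 had 3, 2 had 4 and 1 had 5. The share with 2 genes was 81.4%, against 74.1% of the 463 other spots of several genes with all 12 values that were not left out by the rule. In 45 of the 70 the genes lay on 2 or more chromosomes. In 12 spots (17.1%) at least 1 pair of genes lay within 10 genes of each other on the chromosome, against 17.2% of the other spots for which gene order was known. GLR2.8/GLR2.9 and GH9B18/GH9B17/GH9B16 were among these, with genes next to each other. The table gives a symbol of its own to 23 of the genes, on 14 spots, and the remaining genes are known here by locus only.

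By the same criteria of 6 pairs and 0.5, 13.3% of all 2383 spots with 12 values were higher in tpt1, as were 12.9% of those with several genes and 16.9% of those with 1 gene. Across the 70 spots the mean difference ran from 0.51 to 1.88 on the log2 scale, with a median of 0.83, or 1.78-fold. The median over all spots with 12 values was 0.10. A difference of at least 1 was found in 26 spots and one of at least 1.5 in 8. In 25 of the 70 every tpt1 sample lay above every WT sample, and over all spots with 12 values that share was 5.79%. Both shares follow from the choice of the spots and nothing is read from them.

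**Figure D1:**
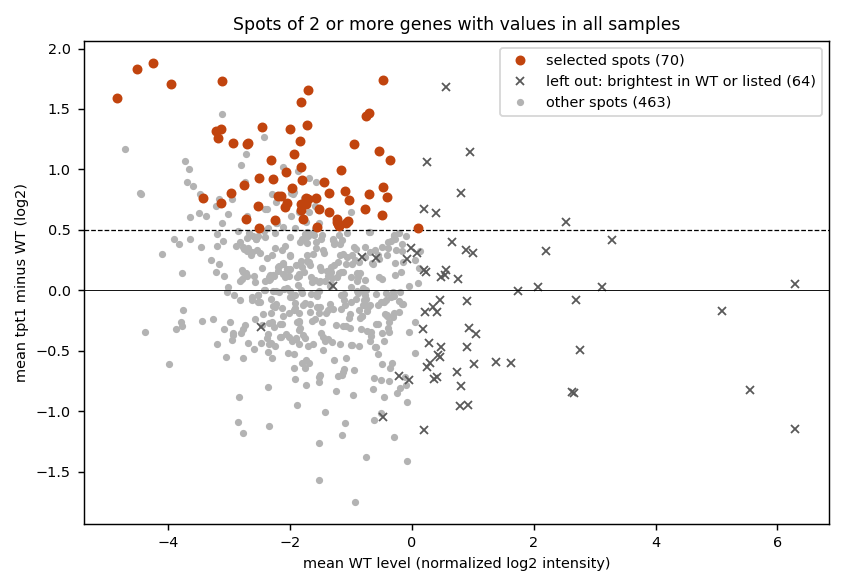
The mean tpt1 minus WT difference (log2, vertical axis) is plotted against the mean WT level (normalized log2 intensity, horizontal axis) for each spot of several genes with all 12 values, with the 70 selected spots in red, spots left out as brightest in WT or listed as crosses, and the other 463 in grey. The dashed line is the threshold of 0.5. Selected spots lie at WT levels from -4.83 to 0.10, and grey points above the line are spots in which at least 1 pair was not higher in tpt1.

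The spots were dim. Their median deposited intensity lay between 0.163 and 3.42 in tpt1 and between 0.0388 and 0.831 in WT, on a scale that ends at 100. The normalized WT level had a median of -1.81 in the selected spots and of -1.71 in the 463 others. Over the 70 spots the WT level and the difference had a Spearman correlation of -0.315 and a Pearson correlation of -0.42, given as a description, since the WT level enters both quantities and the spots share their samples. The 35 dimmer spots had a median difference of 0.98, against 0.76 in the brighter 35. The lowest WT sample was below -5 in 10 spots and the lowest tpt1 sample in 0. The choice of the spots favours this, since each tpt1 sample had to lie above its WT partner, and nothing is read from it.

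A pair of spots carried genes with symbols that refer to auxin metabolism. Auxin, or indole-3-acetic acid, is the hormone of cell expansion and organ formation, and YUCCA flavin monooxygenases catalyse the last step of its main route of synthesis. YUC6/YUC2, a spot for members of that family, read -0.59 at the lowest, -0.04 at the median and 0.58 at the highest in tpt1, against -1.82, -1.82 and -1.25 in WT (normalized log2 intensity). The groups did not overlap, and the WT samples lay close together except WT 5. The mean difference was 1.66 (SD over the 6 pairs 0.26), or 3.16-fold, the sixth largest of the 70.

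IAGLU/AT4G14090 includes a gene named for an enzyme that attaches glucose to indole-3-acetic acid, a step that takes the hormone out of its active pool. It read 0.31, 0.90 and 1.15 in tpt1 at the lowest, median and highest, against -1.65, -0.53 and -0.09 in WT. The groups were again apart, with tpt1 3 and tpt1 4 the lowest of the mutant samples. The mean difference was 1.47 (SD over pairs 0.58), or 2.76-fold. AT4G14090 has no symbol in the table, and whether IAGLU gave the signal was not tested.

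Among receptors, GLR2.8/GLR2.9 stands for neighbouring genes of glutamate receptor-like channels, which are related to the glutamate-gated channels of animals. It read -2.15, -1.91 and -1.58 in tpt1 at the lowest, median and highest, against -5.89, -2.96 and -2.08 in WT. The groups overlapped, because WT 5 and WT 6, both at -2.08, lay above the lowest mutant sample. The mean difference was 1.31 (SD over pairs 1.35), and WT 2 lay far below the rest. The mean over the pairs other than number 2 was 0.79. AT1G61610/B120, of which B120 is a receptor-like kinase, differed by less but more evenly, reading -1.62 to -1.15 in tpt1 and -2.25 to -1.89 in WT. Its difference was 0.72 with an SD over pairs of 0.15, and its groups did not overlap.

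Cell wall genes were on 3 of the spots with symbols. Glycosyl hydrolase family 9 holds the plant endoglucanases, which cut cellulose-like chains in the wall. GH9B18/GH9B17/GH9B16 read -1.17, -0.98 and -0.78 in tpt1 at the lowest, median and highest, against -2.07, -1.85 and -1.29 in WT. The groups did not overlap, and the difference was 0.76 (SD over pairs 0.36), or 1.69-fold. GH9C2/GH9C3, of another branch of the family, read -1.76, -0.92 and -0.70 in tpt1 against -2.19, -2.03 and -1.09 in WT. Its groups overlapped, numbers 1 and 2 being the lowest in both, and the difference was 0.72 (SD over pairs 0.35). EXLA2/EXLB1 belongs to the expansin-like proteins, relatives of the expansins that loosen cell walls. It read -1.43 to -1.02 in tpt1 and -2.12 to -1.45 in WT, without overlap, and differed by 0.59 (SD over pairs 0.38).

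Several spots carried genes of protein modification and turnover. UBC20/UBC19 stands for ubiquitin-conjugating enzymes, which pass ubiquitin on towards target proteins. It read -1.94, -1.09 and -0.81 in tpt1 at the lowest, median and highest, against -3.08, -2.34 and -1.48 in WT. The groups overlapped, and numbers 5 and 6 were the lowest in both. Its difference was 1.08 (SD over pairs 0.45), or 2.11-fold.

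PDF1A/PDF1B carries the peptide deformylases, which remove the formyl group from new proteins of mitochondria and plastids. It read -1.09, 0.36 and 0.43 in tpt1 at the lowest, median and highest, against -1.78, -0.30 and 0.14 in WT. Sample number 3 was the lowest of both groups, and the other 5 mutant samples lay between 0.31 and 0.43, above every WT sample. The difference was 0.63 (SD over pairs 0.22), or 1.54-fold.

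MMP/AT1G24140, with a matrix metalloproteinase, read -2.10, -1.31 and -0.97 in tpt1 against -2.77, -2.06 and -1.49 in WT, and differed by 0.69 (SD over pairs 0.58) with overlapping groups. The 4-gene spot AT2G14285/AT2G14390/AT2G14290/PIP includes a proline iminopeptidase, which removes a leading proline from peptides. It differed by 0.80 (SD over pairs 0.55), also with overlap. Another spot, AT2G14390/AT2G14290/PIP, was brighter, with a mean WT level of -0.75 against -2.97. That spot was at -0.12 and was higher in 3 of 6 pairs.

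Of the spots with symbols, 2 carried genes of lipid metabolism. AT4G13050/FaTA includes an acyl-ACP thioesterase, which ends fatty acid synthesis in the plastid by releasing the fatty acid from its carrier. It read -0.77, -0.73 and -0.61 in tpt1 at the lowest, median and highest, against -1.65, -1.30 and -1.09 in WT. The mutant samples lay close together and above all WT samples, with a difference of 0.64 (SD over pairs 0.21), or 1.56-fold.

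AAE15/AAE16, for acyl-activating enzymes, read -2.97, -2.64 and -1.61 in tpt1, against -6.52, -2.79 and -1.71 in WT. The medians of its groups lay 0.15 apart. Its mean difference of 0.72 (SD over pairs 1.39) rested on WT 1, at -6.52, since the mean over the pairs other than number 1 was 0.16. This was the least steady of the 70 spots by that measure.

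AT5G47390/AT3G16350 includes a transcription factor of the MYB family, also called KUA1, and differed by 0.72 (SD over pairs 0.27). AT1G03010/SETH6 was the dimmest of the 70 in WT, reading -3.89, -3.31 and -2.48 in tpt1 at the lowest, median and highest, against -6.95, -4.36 and -3.46 in WT. Its difference of 1.59 had an SD over pairs of 1.44, with WT 3 and WT 6 far below the rest, and it was 0.43 when a pseudocount of 0.05 was added before the log. The spots with symbols were described because the table names their genes, and that choice followed a look at their values.

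**Figure D2:**
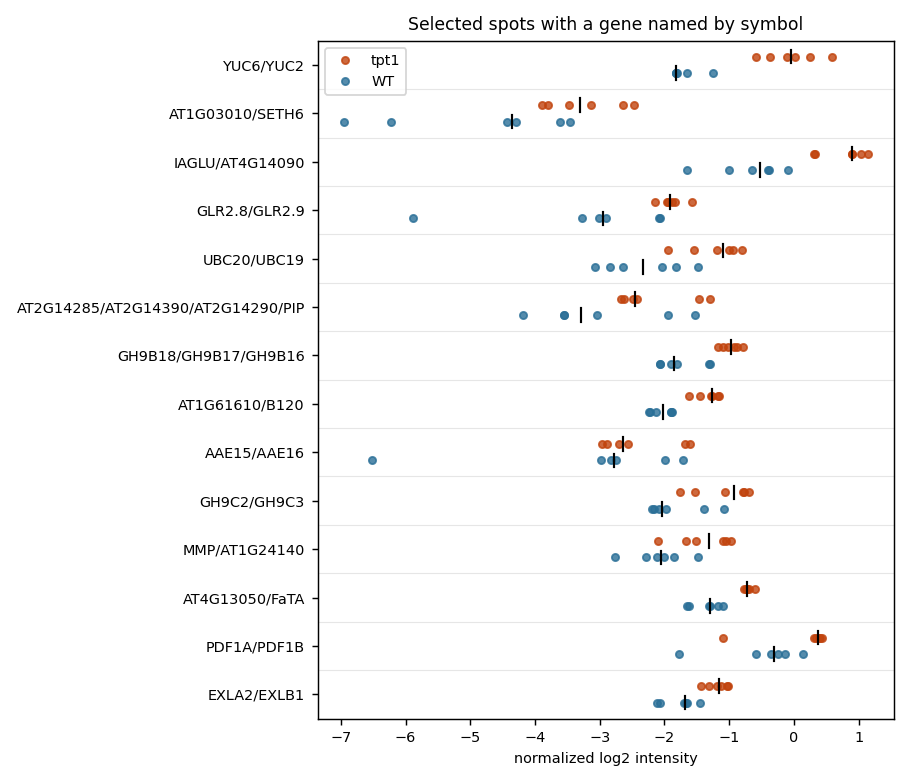
Normalized log2 intensity of each sample (horizontal axis) is shown for the 14 spots with a gene named by a symbol, tpt1 in red above WT in blue, with a bar at the median of each group. YUC6/YUC2 and IAGLU/AT4G14090 lie apart between the groups, whereas in AAE15/AAE16 the medians are 0.15 apart and 1 WT sample is at -6.52.

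The largest mean differences belonged mostly to spots known by locus. AT1G74220/AT2G03630 was first, reading -2.50, -2.35 and -2.21 in tpt1 at the lowest, median and highest, against -6.55, -3.40 and -2.62 in WT. The mutant samples were tightly grouped and lay above all WT samples, of which WT 5 (-6.39) and WT 6 (-6.55) were far below the rest. Its difference was 1.88 (SD over pairs 1.75), or 3.69-fold, and the mean over the pairs other than number 5 was 1.42. The pair differences were 4.18 in number 5 and 4.07 in number 6, but only 0.32 to 0.95 in numbers 1 to 4. With a pseudocount of 0.05 added to the intensities the mean difference was 0.83. AT1G56220/AT1G54070 followed at 1.83 (SD over pairs 1.83), with WT samples from -8.07 to -2.16. The mean over the pairs other than number 1 was 1.19, the groups overlapped, and with the pseudocount the difference was 0.58.

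AT2G44260/AT2G44230 was the largest of the brighter spots. It read 0.12, 1.75 and 2.06 in tpt1 at the lowest, median and highest, against -1.99, -0.09 and 0.31 in WT. Its groups overlapped only through numbers 5 and 6, which were the lowest in both. The difference of 1.74 held in each number, with pair differences from 1.22 to 2.12, and was 1.61 with the pseudocount.

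AT1G48990/AT3G18570 read -1.76 to -1.10 in tpt1 and -4.78 to -2.17 in WT, without overlap, and differed by 1.73 (SD over pairs 0.85). AT5G22400/AT3G11490 read 0.05 to 1.14 in tpt1 and -1.54 to -0.19 in WT, also apart, and differed by 1.44 (SD over pairs 0.48). These and AT1G34380/AT3G52050, AT1G71000/AT1G56300 and AT1G62085/AT1G62110/AT1G56380, at 1.34, 1.24 and 1.21, were among the 20 largest in which the groups did not overlap.

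AT4G35685/AT4G01590/AT3G51410 differed by 1.71 and AT4G04730/AT2G31590 by 1.56, both with overlap. AT4G38380/AT2G38330 and AT3G52210/AT3G20650 were at 1.35 and 1.34. AT2G10020/AT2G09990/AT2G09970 and AT5G46390/AT4G17740/AT3G57680 were both at 1.22. In AT1G07280/AT2G29670 (1.37) and AT5G13720/AT4G19390 (1.26) single WT samples, WT 3 and WT 1, weighed heavily, and the means over the other pairs were 0.90 and 0.79.

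**Figure D3:**
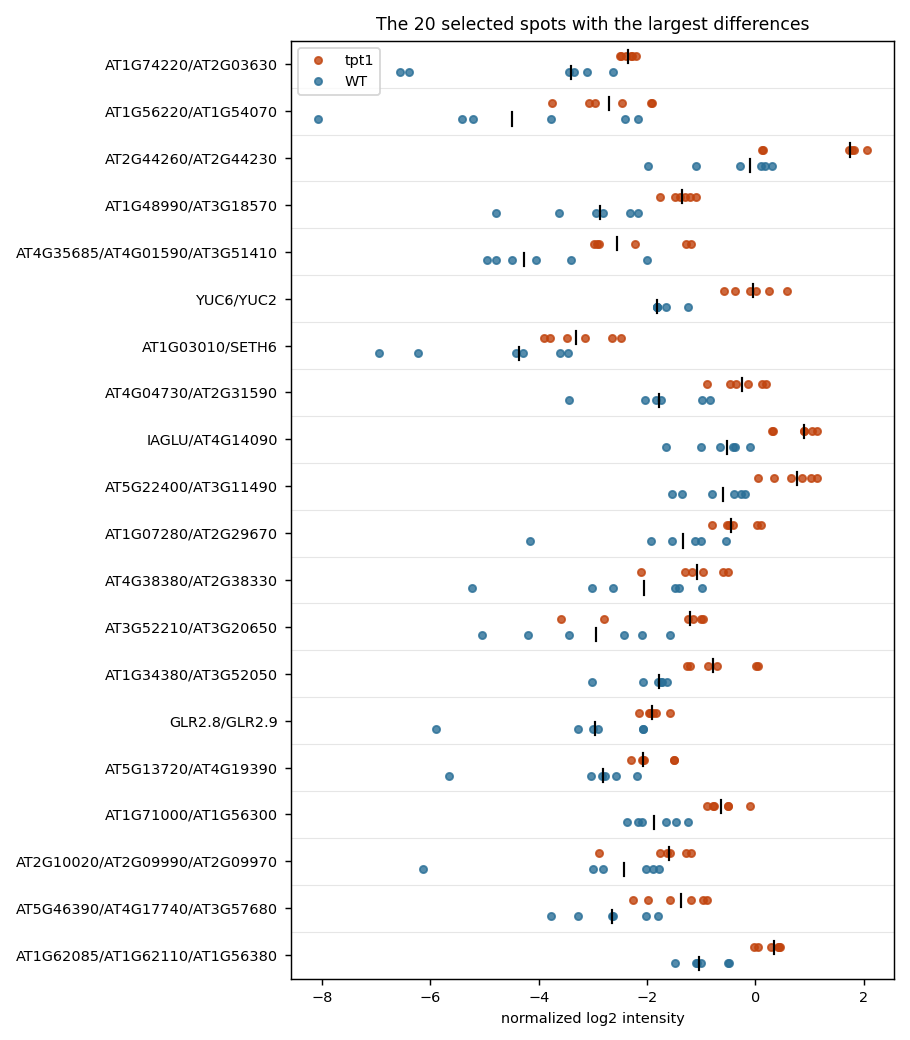
Normalized log2 intensity of each sample (horizontal axis) is shown for the 20 selected spots with the largest mean differences, tpt1 in red above WT in blue, with a bar at the median of each group. The WT points reach down to -8.07 and the tpt1 points to -3.89.

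The weight of single pairs was examined in all 70 spots. With the pair of the largest difference left out of each spot, the mean of the other 5 pairs was at least 0.5 in 59 of the 70. It shrank by over 1.5 times in 6 spots, namely the 5 given above (AT1G56220/AT1G54070, AT1G07280/AT2G29670, GLR2.8/GLR2.9, AT5G13720/AT4G19390 and AAE15/AAE16) and AT1G52550/AT3G15780, which was at 0.61 without number 6 and at 1.21 with it. The medians of the groups differed by at least 0.5 in 64 spots. A difference of at least 0.5 in all 6 pairs was found in 20 spots. The steadiest spots by the SD over pairs were AT5G19500/AT2G33260, with a difference of 1.15 and pair differences from 1.05 to 1.38, and AT5G38290/AT5G16140, with 0.57 and pair differences from 0.42 to 0.76.

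Adding a pseudocount of 0.05 before the log, which draws in the dimmest readings, left all 70 spots above 0 and 53 at 0.5 or more, with a median of 0.65. The difference shrank by over 1.5 times in 16 of the 70. Besides AT1G03010/SETH6, AT1G56220/AT1G54070 and AT1G74220/AT2G03630 these included AAE15/AAE16 (0.22 with the pseudocount), GLR2.8/GLR2.9 (0.75) and AT2G14285/AT2G14390/AT2G14290/PIP (0.43). Among the large differences they included AT4G35685/AT4G01590/AT3G51410 (0.92), AT3G52210/AT3G20650 (0.82), AT5G13720/AT4G19390 (0.74) and AT2G10020/AT2G09990/AT2G09970 (0.65). AT1G52550/AT3G15780 was at 0.73 and AT1G62130/AT4G24860 at 0.56 on that scale, AT1G78110/AT1G22230 at 0.39, and AT2G03850/AT2G03740, near the threshold, at 0.29.

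At the threshold of 0.5, the last spots inside were AT3G62430/AT3G54160 at 0.52, AT2G03850/AT2G03740 at 0.52 and AT1G80530/AT4G34950/AT2G16660 at 0.51. The first outside were AT4G22666/AT4G22660/AT4G22165 at 0.49, AT4G24310/AT3G02430 at 0.49 and AT1G15710/AT5G34930 at 0.47.

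Levels moved with the sample number as well as with the genotype. Neighbouring numbers (1 and 2, 3 and 4, 5 and 6) were compared with the rest within each genotype. In 12 of the 70 spots (17.1%) numbers 5 and 6 were the lowest in both tpt1 and WT, and in 17 (24.3%) they were the highest in both. Over all 2383 spots with 12 values these shares were 16.9% and 17.7%. Numbers 1 and 2 were the lowest in both in 10 spots (14.3%, against 6.21% of all).

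The groups overlapped in all 12 spots that were low in numbers 5 and 6. AT5G19500/AT2G33260 read 0.95, 1.02, 1.27 and 1.06 in tpt1 1 to 4, and -0.29 and -0.36 in tpt1 5 and 6, against -0.15, -0.06, -0.11 and -0.15 in WT 1 to 4, and -1.40 in both WT 5 and WT 6. Thus tpt1 5 and tpt1 6 lay below WT 1 to 4, although the pair differences of all numbers lay between 1.05 and 1.38. AT1G16630/AT2G16270 was less even, with tpt1 at 0.76 to 1.22 in numbers 1 to 4 and -0.87 and -0.70 in numbers 5 and 6, against -0.28 to 0.01 and -1.04 and -1.20 in WT. Its pair difference was 0.16 in number 5 and 1.36 in number 4. YUC6/YUC2 was among the 17 spots with their highest readings in numbers 5 and 6 of both genotypes.

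Across the 70 spots the median difference was close in the 3 sets of neighbouring numbers. It was 0.83 in numbers 1 and 2, 0.84 in numbers 3 and 4 and 0.82 in numbers 5 and 6. A difference of at least 0.5 was found in 63, 58 and 59 spots in these sets, in that order, and in all 3 sets in 43 spots. The largest set difference was in numbers 1 and 2 in 26 spots, in numbers 3 and 4 in 20 and in numbers 5 and 6 in 24. What a number marks is not given in the labels.

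**Figure D4:**
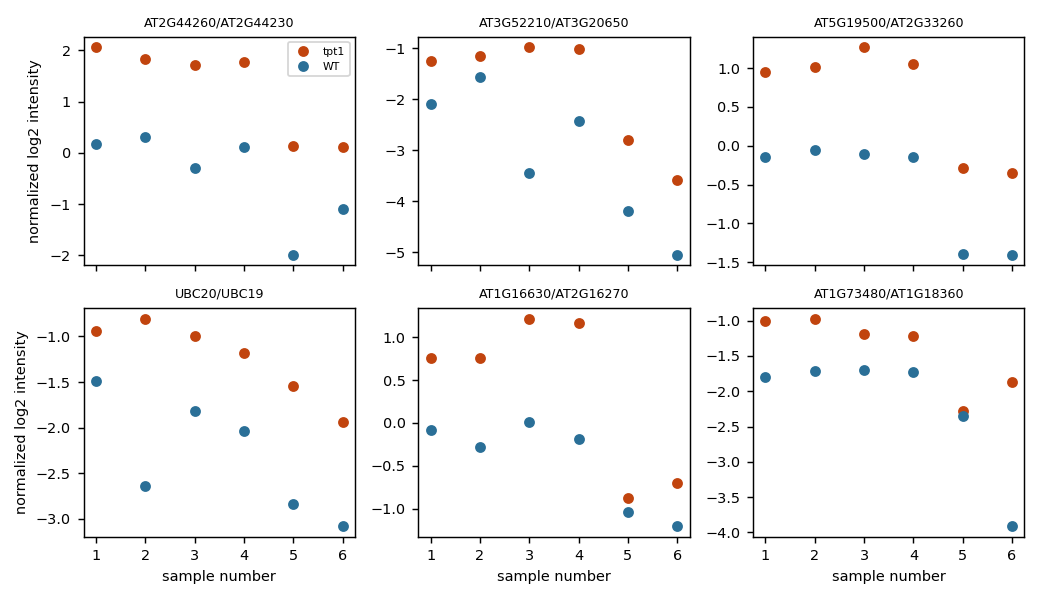
Normalized log2 intensity (vertical axis) is plotted by sample number (horizontal axis) for 6 of the 12 spots in which numbers 5 and 6 were the lowest in both genotypes, tpt1 in red and WT in blue. Within each number the red point lies above the blue one, as the choice of the spots requires, while numbers 5 and 6 lie below numbers 1 to 4 in both colours.

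A question that the choice of the spots leaves free is whether other spots annotated to the same genes moved with them. Of the 70 spots, 15 had another spot with exactly the same genes. None of these 15 other spots was itself selected. One of them, the second spot of AT1G52550/AT3G15780, met the criteria and was left out because it was among the 60 brightest in WT. Of the 15, 13 had enough values to be tested (at least 4 in each group). Their differences fell on both sides of 0, with 7 above and 6 below, and had a median of 0.05 and a range from -1.18 to 2.33. The median over all 2849 tested spots was 0.08, and 56.1% of them were above 0. By limma, fitted to the whole array with Benjamini-Hochberg adjustment, 1 of the 13 was higher and 1 was lower in tpt1, and over the whole array 6.39% of spots were called higher and 6.39% lower. With the sample number as a block 1 was higher and 2 were lower, the additional one being that of AT4G04730/AT2G31590. The block called 17.5% of spots higher and 14.3% lower over the whole array.

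The spot that was called lower was the second one of AT3G60490/AT2G44940. It read -2.14, -1.38 and -1.06 in tpt1 at the lowest, median and highest, against -0.85, -0.46 and -0.37 in WT. All tpt1 samples lay below all WT samples, which was so for 4.53% of spots with 12 values. It fell by 1.02 (SE 0.19, limma adjusted p = 0.00385), lower in 6 of 6 pairs, while the selected spot of the same genes was at 0.55. With any 1 sample left out the adjusted p lay between 0.00288 and 0.0105. With all samples, it was 0.00208 when blocked by number and 0.0344 with neighbouring numbers averaged. On the deposited scale the difference was -0.28 (adjusted p = 0.375).

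The spot that was called higher was the second one of AT1G52550/AT3G15780. It read 0.47, 0.68 and 1.43 in tpt1 at the lowest, median and highest, against -0.09, 0.13 and 0.56 in WT, with overlap. It rose by 0.67 (SE 0.20, limma adjusted p = 0.0412), higher in 6 of 6 pairs, and the selected spot was at 1.21. The call held in 4 of the 12 unpaired fits that left out 1 sample, those without tpt1 3, tpt1 4, WT 5 or WT 6. Their adjusted p ran from 0.0344 to 0.0848. With all samples, the limma adjusted p was 0.000552 when blocked by number and 0.0309 with neighbouring numbers averaged. Under median centring the difference was 0.16 (adjusted p = 0.738).

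The other 11 did not pass. The second spot of AT4G04730/AT2G31590 had a difference of -1.18 (SE 0.54, adjusted p = 0.181), lower in 5 of 6 pairs, against 1.56 for the selected spot. Blocking by sample number gave an adjusted p of 0.0482, and averaging neighbouring numbers gave 0.135. Those of AAE15/AAE16 and AT5G13720/AT4G19390 were at -0.85 (SE 0.57) and -0.61 (SE 0.41). The second spots of AT1G62130/AT4G24860 and AT1G61980/AT1G61970 lay near 0, at 0.05 (SE 0.19) and 0.11 (SE 0.23), where the selected spots were at 0.87 and 0.89. The second spot of AT1G71970/AT1G22680 was at 2.33 with an SE of 1.13 (adjusted p = 0.219), from 4 WT values that reached down to -9.43. The differences between spots of the same genes were not tested, since one of each pair was chosen by its value.

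**Figure D5:**
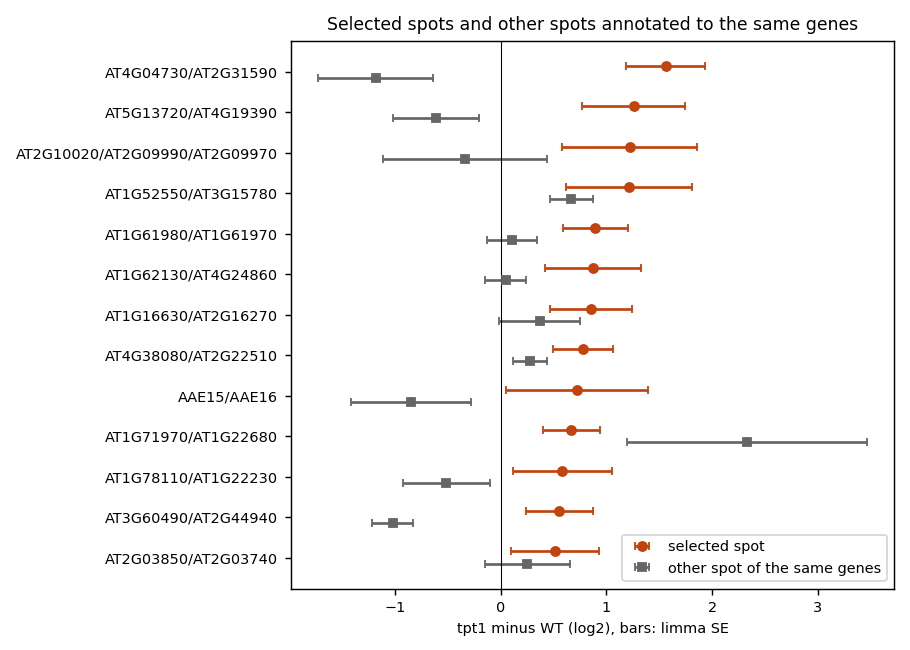
The tpt1 minus WT difference (log2, horizontal axis) with its limma standard error is shown for 13 selected spots (red circles) and for the other spot annotated to the same genes (grey squares). The red points lie above 0 by choice, and the grey points fall on both sides of 0, from -1.18 to 2.33.

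UBC20/UBC19 had a second spot with values above 0 in 2 tpt1 and 3 WT samples, and that of AT1G34380/AT3G52050 was listed at 0 in all samples, so neither was tested. Across the array, 46 further pairs of spots shared exactly the same genes, had both spots tested and held none of the 70. Their differences had the same sign in 23 pairs, or 50%. All such pairs come from the same samples, and the annotation does not say how the probes of a pair differ.

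A further 14 spots shared some but not all genes with a selected spot, and 11 of them were tested. Of these, 5 were above 0, 1 was called higher and 1 lower. With the sample number as a block 3 were higher and 3 lower, and with neighbouring numbers averaged 2 were higher and 2 lower. Over the whole array the share was 6.39% each way in the main fit. With the block it was 17.5% higher and 14.3% lower. The share for averaged neighbours is not given here, and nothing is read from these small counts. The spot of GH9B16 alone rose by 1.23 (SE 0.36, limma adjusted p = 0.0413), higher in 6 of 6 pairs, beside 0.76 for GH9B18/GH9B17/GH9B16. Its call held in 2 of the 12 unpaired fits that left out 1 sample, those without WT 1 or tpt1 4, with adjusted p from 0.0223 to 0.087. With all samples, its limma adjusted p was 0.00101 when blocked by number and 0.0164 with neighbouring numbers averaged. AT1G54120/AT3G14060/AT3G14040, which adds 1 gene to the selected AT1G54120/AT3G14060, read -3.40, -2.73 and -1.81 in tpt1 at the lowest, median and highest, against -1.75, -0.91 and -0.27 in WT. It fell by 1.75 (SE 0.29, limma adjusted p = 0.00166), lower in 6 of 6 pairs, where the selected spot was at 0.70. All 12 fits without 1 sample kept the call, and on the deposited scale the difference was -0.91 (adjusted p = 0.0818). Blocked by number its adjusted p was 2.5e-05, and with neighbouring numbers averaged 0.00618. AT1G05340, alone on its spot, was at 0.85 (SE 0.27, limma adjusted p = 0.0572), beside 0.79 for the 5-gene spot that includes it, and was higher in 6 of 6 pairs. The adjusted p was 0.0114 when blocked by number and 0.0361 with neighbouring numbers averaged.

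The other 3 calls made under the block went both ways. AT1G08340/AT5G22400/AT4G03100/AT3G11490, which adds 2 genes to the selected AT5G22400/AT3G11490 (1.44), had a difference of -1.14 (SE 0.44, limma adjusted p = 0.114). It was lower in 5 of the 5 pairs with values. The adjusted p was 0.0126 when blocked by number and 0.0424 with neighbouring numbers averaged, and on the deposited scale the difference was -0.23. AT5G18760/AT3G06330 shares AT3G06330 with the selected AT4G10030/AT3G52570/AT3G06330 (0.98) and had a difference of -0.78 (SE 0.26, limma adjusted p = 0.062), lower in 5 of 6 pairs. Its adjusted p was 0.0159 when blocked and 0.0599 with neighbours averaged, and on the deposited scale its difference was 0.12. AT3G33528/AT3G33530/AT2G26610, beside the selected AT3G33530/AT2G26610 (0.85), had a difference of 0.64 (SE 0.31, limma adjusted p = 0.217), higher in 6 of 6 pairs. Its adjusted p was 0.00811 when blocked and 0.0767 with neighbours averaged, and under median centring its difference was 0.06.

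The direction of the selected spots was also read on other scales. On the deposited scale, without normalization, all 70 met the criteria, but so did 63.4% of all spots with 12 values, the median of all tested spots being 0.86 there. Under median centring all 70 stayed above 0 and 56 met the criteria, against 10% of all spots, and the median of the 70 was 0.79. AT1G80530/AT4G34950/AT2G16660 came closest to 0 there, at 0.06. In the whole-array limma fit 29 of the 70 were called higher, beside 6.39% of all tested spots, and blocking by sample number gave 64, beside 17.5%. These counts come from the contrast that chose the spots and support nothing.

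No spot of several genes carried a gene of the fixed lists. The lists of leaf markers (11 genes) and of plastid phosphate translocators (6 genes) had 1 spot each, both of a single gene, and that of seed, root and pollen markers (9 genes) had 0 spots. The translocator spot, of AT5G17630, had deposited intensities of 0 to 0.16 in tpt1 and 0 to 0.17 in WT. Its normalized difference from these dim readings was -1.26 (SE 0.86, limma adjusted p = 0.403). LHB1B2, a leaf antenna gene, had deposited intensities of 17.7 to 45.4 in tpt1 and 48.6 to 53.4 in WT. Its normalized difference was -0.12 (SE 0.19, limma adjusted p = 0.743). In these bulk samples, a lower number of cells of a type cannot be told apart from less RNA per cell.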

How the data were processed

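Deposited array intensity values of 12 samples, 6 of tpt1 and 6 of WT, were analysed as the authors deposited them, on a linear scale from 0 to a ceiling of 100. The reading, correction and scaling of the spots are not given in the sources used here, so the scale, the centring and the meaning of a 0 stay unknown, and no background measure shows which dim spots are above it. Groups and numbers come from the labels. Zeros were set as missing, values taken as log2 and the 12 columns quantile normalized. Genes come from the platform annotation, and names from a table of assembly TAIR10.1, used for names and gene order only. The selected spots, lists and tests were chosen with earlier results of these data known. The search for other spots of the same genes was added after the spots were seen.

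Spots with at least 4 values in each group were tested with limma 3.58.1 in R 4.3.3 (lmFit, eBayes with trend), adjusted over all spots by Benjamini-Hochberg with a threshold of 0.05, unpaired in the main. After subtraction of group means, samples of the same number correlated at 0.467 to 0.609 and 12 of 12 correlated best with their own number. The numbers therefore pair the samples by the rule that every pair lies above 0.1. The highest correlation between samples of different numbers was 0.455, close to the lowest within a number, so the numbers may not be fully separate units. Where the block by number changes a call of a spot that was not selected and shares genes with a selected one, it is given. Spots were named by rule (the 20 largest differences, the family classes with several spots, those at the threshold), and those with symbols were added. The fit was tested on simulated data. Matplotlib 3.10.9 under Python 3.11.15 drew the figures. The number of arrays limits the precision.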

Additional observations from a re-analysis of the deposited data

Results flagged for a closer look

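In 25 of the selected spots, the 50 groups of 6 values were searched for a sample that stood apart, by a gap to its neighbour of more than 0.625 of the range of its group. There were 6. About 1 group in 20 is marked that way by chance in unselected groups, which would give 2.5. These spots were chosen by the same values, most of them for a large difference that a single low WT sample can raise. That rate therefore does not apply here, and nothing is read from the comparison. In WT, sample 5 of YUC6/YUC2 read -1.25, with the others at -1.82 to -1.65. For AT1G34380/AT3G52050, WT 4 read -3.02, with the others at -2.07 to -1.63. For GLR2.8/GLR2.9, WT 2 read -5.89, with the others at -3.28 to -2.08, and for AT5G13720/AT4G19390, WT 1 read -5.66, with the others at -3.04 to -2.18. AT2G10020/AT2G09990/AT2G09970 was low in number 3 of both genotypes, where tpt1 3 read -2.89 with the other mutant samples at -1.75 to -1.18, and WT 3 read -6.13 with the others at -3.00 to -1.79.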

How the results depend on the processing

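The criteria gave 70 spots in the main setting, 378 on the deposited scale, 57 with median centring, 72 with a pseudocount of 0.05, 87 with at least 4 values per group, 77 with the 60 brightest kept and 26 with a threshold of 1. Leaving out samples or numbers gave 74 to 86, since fewer pairs must then be higher. The median difference of the 70 spots was 1.66 on the deposited scale and 0.80 to 0.91 without a sample or number. Limma called 29 of the 70 higher, 68 on the deposited scale, 64 with the replicate number as a block and 19 to 31 with samples or numbers left out. Of all tested spots 182 were called higher, 1323 on the deposited scale, 499 with the number as a block and 106 to 178 with samples or numbers left out. Of the 13 other spots of the same genes, 1 was called higher, and 1 also with the block or with averaged neighbours. On the deposited scale 7 were, with median centring 0, with a pseudocount 0, and with samples or numbers left out 0 to 1. At an unadjusted p under 0.05 in limma, 1 was higher in the main setting and with samples or numbers left out, 0 with median centring and 2 with a pseudocount. Their median of 0.05 was 0.78 on the deposited scale, where that of all tested spots was 0.86, and -0.08 with median centring, and it ran from -0.08 to 0.16 with samples or numbers left out. The differences of the 25 spots named by rule kept their sign under each alternative tried, but with a pseudocount of 0.05 they shrank by over 1.5 times in 9 of the 25.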
